A study of Danio rerio with 2 samples.

Results

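The 9 primitive myeloid marker genes described here are mpx, lyz, lcp1, spi1b, coro1a, cebpa, cebpb, csf1ra and ctss2.1. They were found on the array as the probe sets whose single gene symbol in the platform annotation is one of those names. The rule gave 14 of 15502 probe sets, with 4 for mpx, 2 each for spi1b and coro1a, and 1 for each other gene. No probe set that names several genes included one of them. On the basis of the brightest probe set of each gene, 8 of the 9 genes were measured, among 5958 measured of 8793 genes in all. Only csf1ra was below the floor on both arrays.

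Both arrays carried total RNA of zebrafish (Danio rerio) embryos at 24 hours after fertilization. One group had been injected with a morpholino against DrC1q-like, a gene named for its likeness to the complement component C1q. The other had been injected with a control morpholino that carries 5 mismatches to the DrC1q-like one. Morpholinos are synthetic antisense oligomers which stop a chosen RNA from being translated or spliced. The dose was about 5 ng per embryo in both groups, no other allele or agent is named, and the labels state no strain. There was 1 array per group, from an unstated number of whole embryos, so the values have no replicate check, and neither a test nor a p-value was computed. Hybridization and scanning took place on a separate day for each array, which means that group cannot be told apart from day.

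In the zebrafish embryo the first myeloid cells arise in the anterior lateral mesoderm, before blood stem cells form. The ETS factor Spi1b (Pu.1) is needed for their fate, and C/EBP factors act with it on granule and enzyme genes. The cells become early macrophages, which spread over the yolk, and early neutrophils, which store enzymes such as myeloperoxidase and lysozyme in granules. Their movement depends on the actin cytoskeleton, which L-plastin and coronin 1A bind. In RNA from whole embryos, fewer cells of a type and less RNA per cell cannot be told apart.

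A signal below the median of both arrays, 33.3, was raised to that floor before a log2 ratio of the C1q-like morpholino array over the control morpholino array was taken. With that reading, 1 of the 8 measured genes, mpx, was past 2-fold upward on the C1q-like morpholino array, where 1.68% of all measured genes were. None was at least 2-fold lower, where 4.1% of all measured genes were. Ratios were above 1 for 6 of the 8 and below 1 for 2, while 50.9% of all measured genes were above 1. The median log2 ratio of the 8 genes was 0.40, against 0.01 for all measured genes. The gene spi1b was measured only through the C1q-like morpholino array, so its ratio had to lie above 1. The median also rests on it, lying between spi1b at 0.37 and cebpb at 0.42. Neither count, nor the median, is therefore support for a shift of the group. Without any floor the signal was higher with the C1q-like morpholino for 7 of the 9 genes, and 53.0% of all genes read that way.

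**Figure D1:**
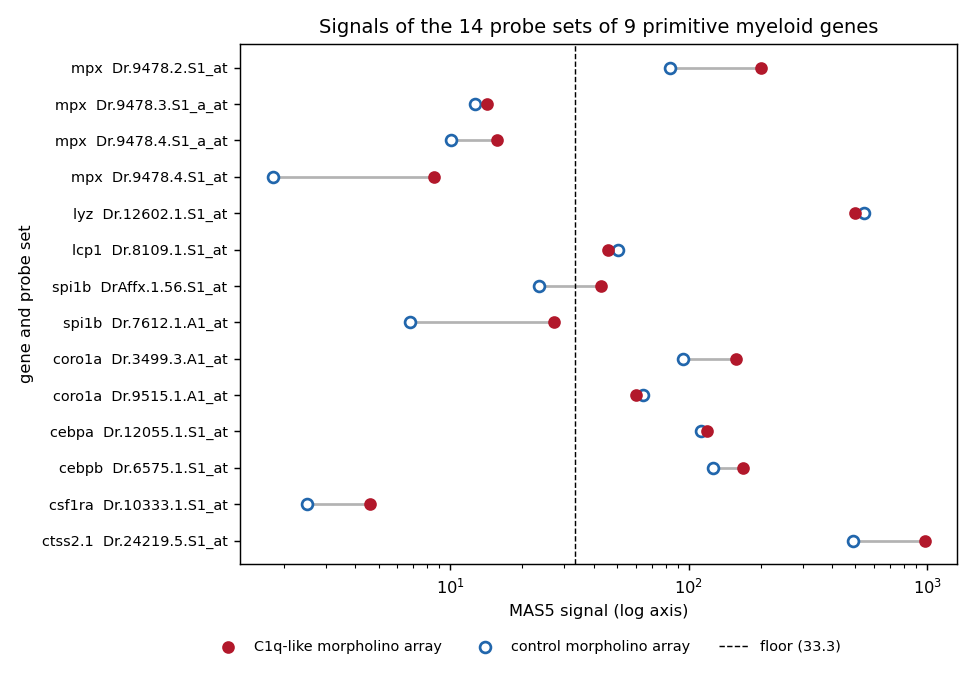
MAS5 signal (log axis) of each of the 14 probe sets on the C1q-like morpholino array (filled red) and the control morpholino array (open blue), 1 array each, with the floor of 33.3 as a dashed line. Of the 14 probe sets 11 read higher with the C1q-like morpholino, several of them from the same gene. These were 6 of the 9 measured probe sets and all 5 below the floor on both arrays. Of all probe sets below the floor on both arrays, 58.9% read higher. The widest gap above the floor is that of the brightest mpx probe set, at 201.3 against 83.2.

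Neutrophil granule enzymes gave unlike values. The gene mpx (Entrez gene 337514) encodes myeloperoxidase, the peroxidase that marks zebrafish neutrophils. Its brightest probe set read 201.3 with the C1q-like morpholino, against 83.2 with the control morpholino. That is a 2.42-fold higher signal, a log2 ratio of 1.27, and places mpx as the 33rd highest of 5958 measured genes. These signals correspond to percentile 87.2 of the C1q-like morpholino array and percentile 72.0 of the control array. The other 3 mpx probe sets were below the floor on both arrays, so the ratio of mpx rests on 1 probe set. These read 14.3 against 12.7, 15.7 against 10.1, and 8.5 against 1.8. They were all higher with the C1q-like morpholino, but so did 58.9% of all probe sets that were below the floor on both arrays.

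The gene lyz (Entrez gene 677744) encodes lysozyme C, a bacterial cell wall hydrolase of neutrophils and early macrophages. Its single probe set was bright, with 496.9 on the C1q-like morpholino array against 544.7 on that of the control. The log2 ratio was -0.13, so the signal was 1.1-fold lower with the C1q-like morpholino. These correspond to percentiles 93.9 and 94.3 of all signals on their arrays. One granule enzyme gene was therefore past 2-fold and the other was nearly level.

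Leukocyte cytoskeleton genes were also divided. The gene lcp1 (Entrez gene 30583) encodes L-plastin, an actin-bundling protein of all leukocytes. Its probe set read 45.9 with the C1q-like morpholino, against 50.7 in the control, a log2 ratio of -0.14 close to the floor. The gene coro1a (Entrez gene 100002113) encodes coronin 1A, an actin-binding protein of leukocytes, and its 2 probe sets disagreed. The brighter read 157.3 against 95, a 1.66-fold higher signal and a log2 ratio of 0.73. The dimmer read 60.1 against 64.1, a log2 ratio of -0.09. The disagreement of 0.82 on the log2 scale was more than the median of 0.36 and less than the 95th percentile of 1.29 between the 2 brightest measured probe sets of a gene, over 789 genes. As a mean over both probe sets the log2 ratio of coro1a was 0.32. These pairs give an idea of how far probe sets of a gene differ on the same 2 arrays. They hold neither an error shared by a whole array nor the variation between batches of embryos.

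Among the transcription factors, spi1b (Entrez gene 30117) encodes Pu.1, the ETS factor at the head of the myeloid programme. Its brighter probe set read 43 with the C1q-like morpholino, against 23.5 in the control. As the control signal was below the floor, the ratio is a lower bound, at least 1.29-fold higher. The deposited signals taken without a floor gave a log2 ratio of 0.87. The second spi1b probe set was below the floor on both arrays, at 27.2 against 6.8. The spi1b readings were thus both higher with the C1q-like morpholino, and both were dim. The brighter was measured only through the C1q-like morpholino array. Of all probe sets below the floor on both arrays, as the second was, 58.9% read higher with the C1q-like morpholino.

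The gene cebpa (Entrez gene 140815) encodes C/EBP alpha, a leucine zipper factor of granulocytes and of liver. Its signal was 118.9 with the C1q-like morpholino, against 112.9 in the control, a log2 ratio of 0.07. With each array centred on its median the log2 ratio of cebpa turned to -0.04, so no direction is given for it. The gene cebpb (Entrez gene 140814) encodes C/EBP beta, a related factor of macrophages that also responds to inflammation. Its probe set read 169.4 against 126.5, 1.34-fold higher and a log2 ratio of 0.42. The related genes cebpd and cebpg were close to level, with 164.9 against 160 and 105.7 against 120.8, while cebp1 was below the floor on both arrays at 11.1 against 14.5.

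The receptor gene csf1ra (Entrez gene 64274) encodes the receptor for colony stimulating factor 1, used by macrophages and, in zebrafish, by yellow pigment cells. Its single probe set read 4.6 with the C1q-like morpholino, against 2.5 in the control. These correspond to percentiles 12.2 and 9.02 of all signals on their arrays, and no ratio was taken. The macrophage receptor of this group could therefore not be compared at these signals.

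The lysosomal protease gene ctss2.1 (Entrez gene 554157) encodes a cathepsin S, an enzyme of antigen-presenting cells in mammals. Its single probe set was bright, with 977.3 on the C1q-like morpholino array against 489.1 on that of the control. The log2 ratio of 0.9987 was just short of 2-fold, and ctss2.1 was the 102nd highest of 5958 measured genes. It and coro1a, the latter by its brighter probe set only, were the only members between 1.5-fold and 2-fold higher. With mpx they made 3 of 8 at least 1.5-fold higher, where 10.2% of all measured genes were. The 1.5-fold cut was chosen after seeing the data. The paralogue ctss2.2 was dim, with its brightest probe set at 31.7 against 24.5 and another at 11.3 against 49.3.

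Ratios were set against those of genes with like signals, because the spread of log2 ratios and their median varied with signal. Of 1408 genes with a mean signal of 66.6 to 133.2, the class of mpx, coro1a and cebpa, 2.06% were at least 2-fold higher and the median log2 ratio was -0.09. The middle 95% of that class ran from -1.27 to 0.96, so mpx was above it, with coro1a and cebpa inside. In the class above 266.4, which held ctss2.1 and lyz, the median of 1342 genes was 0.10 and the middle 95% ran from -0.96 to 0.84. There ctss2.1 was above the range, and lyz inside it. The values of cebpb, lcp1 and spi1b were inside the middle 95% of their own classes. The class of spi1b, with mean signals below the floor, ran from -0.71 to 0.63. Each gene in it had 1 signal raised to the floor, so its ratios are bounds and the place of spi1b says little.

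**Figure D2:**
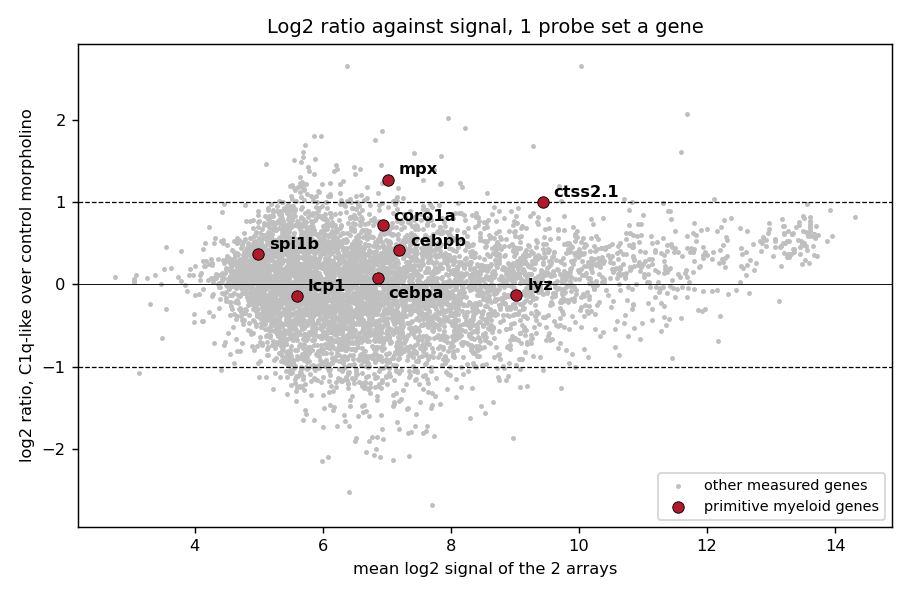
Log2 ratio of the C1q-like over the control morpholino array (vertical axis) against the mean log2 signal of the 2 arrays (horizontal axis), 1 point per measured gene, with the 8 measured primitive myeloid genes in red and dashed lines at 2-fold. The gene mpx is above the upper line at 1.27, ctss2.1 touches it, and the other members are between -0.14 and 0.73.

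The other myeloid genes came from 5 lists of neutrophil, macrophage, leukocyte, transcription factor and cytokine signalling genes. Of 117 names besides the members, 56 were found on the array and 32 were measured. How far their signals in whole embryos come from myeloid cells was not tested. Of these 32, 22 had ratios above 1, 9 below and 1 equal to 1, with a median log2 ratio of 0.11, while 50.9% of all measured genes were above 1. In 5 of the 22 the control signal was below the floor, so their ratios had to lie above 1. Of the 26 genes at or above the floor on both arrays 17 were above 1. The share of 50.9% includes genes below the floor on 1 array, so it is no like background for this count. With the floor used here 0 of the 32 were at least 2-fold higher or lower, which is close to the shares of 1.68% and 4.1% over all measured genes. By their brightest probe set, the remaining 24 were below the floor on both arrays. Among them were defining leukocyte genes, namely ptprc, which encodes the CD45 phosphatase, at 1.4 against 5.7, and the macrophage scavenger receptor gene marco at 14.8 against 16.4.

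Of the 3 measured genes of the neutrophil list besides mpx and lyz, ncf1, encoding an NADPH oxidase subunit, read 48.4 with the C1q-like morpholino, against 13.7 in the control. The control signal was below the floor, so it was at least 1.45-fold higher. The collagenase gene mmp13a read 42.7 against 33.6, and nccrp1 read 56.7 against 55.3. Oxidase genes ncf4 and cyba were below the floor on both arrays. The signals of these 3 genes were dim, between 13.7 and 56.7.

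Besides ctss2.1, 6 genes of the macrophage list were measured, 5 of them with ratios above 1, where 50.9% of all measured genes were. Of the 5, 1 (c1qc) had to lie there because its control signal was below the floor. By their brightest probe set, 10 genes of the list were below the floor on both arrays, csf1ra and marco among them. How far the measured signals come from macrophages was not tested. The apolipoprotein E gene apoeb, which marks microglia later but is also strongly expressed in the yolk syncytial layer, read 5704.8 against 3646.2, 1.56-fold higher. The coagulation factor XIII gene f13a1b read 258.2 against 199 by its brightest probe set, and 54.1 against 78.3 by another, in the opposite direction. The lysosomal legumain gene lgmn was lowest, at 83.3 against 94, followed by slc11a2, an iron transporter gene, at 170.4 against 159.5. The complement gene c1qc, made by macrophages, read 42.5 against 14.3.

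Among leukocyte cytoskeleton and signalling genes other than lcp1 and coro1a, the actin-capping protein gene capgb read 260.7 against 190.6, a log2 ratio of 0.45. The chemokine receptor gene cxcr4b was lowest at 31.9 against 38, a dim signal, and laptm5 was level at 38.1 on both arrays. Including both members, the list of 9 had a median log2 ratio of 0.03, and of -0.09 with median centring. With a floor at the 75th percentile of signals the median was 0.45, over only the genes of the list still measured there.

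The 11 measured myeloid transcription factor genes had a median log2 ratio of 0.19. Of these, 9 were above a ratio of 1, where 50.9% of all measured genes were. In 2 of the 9, spi1b and hhex, the control signal was below the floor, so their ratios could not lie below 1. Besides the members, the highest were mych, a Myc family gene, at 54.6 against 38.7 and the homeobox gene hhex, which also marks blood progenitors and endothelium, at 45.4 against 32.1. The lowest were cebpg and the ETS factor gene etv6, at 85.4 against 94. Runt factor genes runx1 and runx3 were below the floor on both arrays.

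For 8 cytokine and receptor signalling genes the median log2 ratio was -0.18. With a floor at the 75th percentile of signals it was 0.04, over only the genes of the list still measured there. Ratios were above 1 for 3 of the 8, where 50.9% of all measured genes were. The kinase gene jak2a read 63.3 against 35.5, 1.78-fold higher. Its duplicate jak2b read 60.6 against 82.2, a log2 ratio of -0.44. The signal transducer gene stat5a read 49.3 against 13.1, at least 1.48-fold higher. The phosphatase gene ptpn11a read 74.3 against 89.9 by its brightest probe set, and 43.3 against 40.9 by another, in the opposite direction. The pair of Jak2 duplicates thus had unlike ratios on these arrays.

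**Figure D3:**
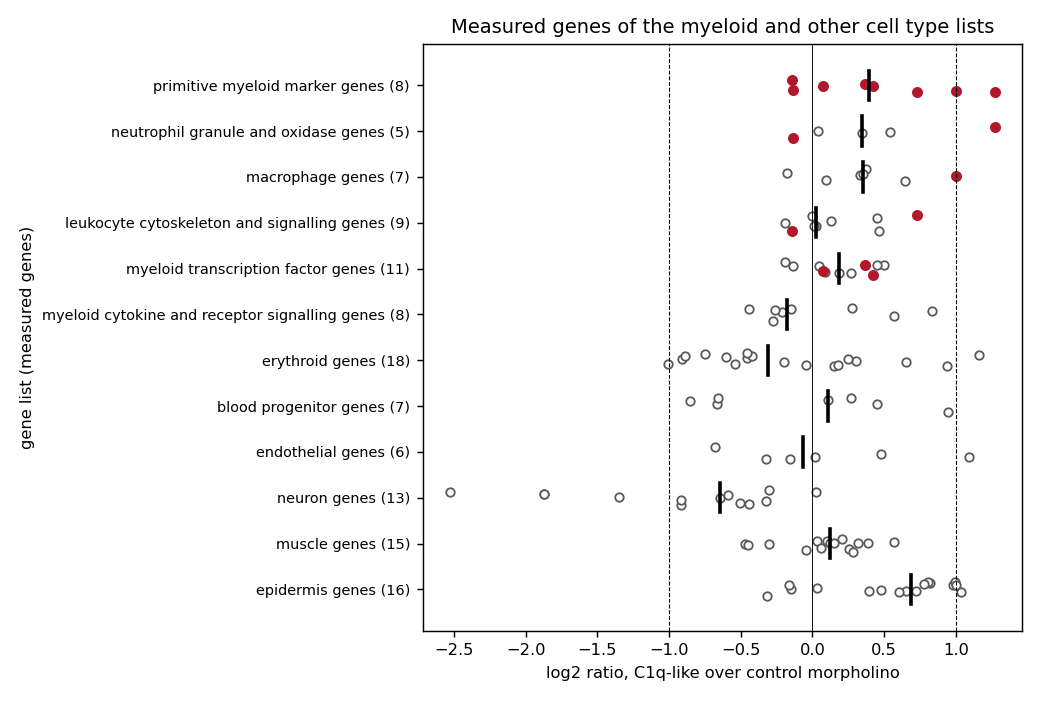
Log2 ratio of the C1q-like over the control morpholino array for each measured gene (points, members in red) of 12 gene lists, with the median as a black bar, dashed lines at 2-fold and the number of measured genes in brackets. The primitive myeloid genes have a median of 0.40, below the epidermis list at 0.69 and above the erythroid list at -0.31.

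Markers of other cell types were read in the same way. At least 2-fold higher were 2 of 16 epidermis genes and 1 each of 18 erythroid and 6 endothelial genes. At least 2-fold lower were 4 of 13 neuron genes and 1 erythroid gene. No blood progenitor or muscle gene was past 2-fold. Across the array, 1.68% of the 5958 measured genes passed 2-fold upward and 4.1% downward, and 50.9% had a ratio above 1. Whether the counts of these lists depart from those shares was not tested. The erythroid list had ratios above 1 for 7 of 18 measured genes and a median log2 ratio of -0.31. That median was -0.01 with a floor at the 75th percentile of signals, -0.12 with one at the 25th and -0.18 with quantile normalization. Fewer genes of the list were measured with the floor at the 75th percentile, and more with that at the 25th. With the reported floor the erythroid list ran from the erythroid factor gene gata1a at 1.16 to the anion exchanger gene slc4a1a at -1.01. Summed over 21 genes its signal was 26125 against 19516, led by bright globin probe sets. The 7 measured blood progenitor genes ran from drl at 0.95 to pbx1a at -0.85, a bound because the C1q-like morpholino signal was below the floor. A further 7 genes of that list, tal1 and lmo2 among them, were below the floor on both arrays. How far the measured signals of the list come from blood progenitors was not tested. The 6 measured endothelial genes ran from the aquaporin gene aqp8a.1 at 1.09 to the vascular receptor gene kdrl at -0.68. Of 16 epidermis genes 13 had ratios above 1, with a median log2 ratio of 0.69 and a range from cldnb at -0.32 to icn2 at 1.04, and their summed signal was 53041 against 30217. Of 13 neuron genes 12 had ratios below 1, with a median of -0.65 and a range from elavl3 at -2.53 to snap25b at 0.03, and the signal summed over the 14 neuron genes on the array was 1337 against 2957. Muscle genes had a median of 0.13 over 15 genes, a value that turned to -0.14 and -0.16 with quantile normalization and lowess centring. They ran from tnnt3b at -0.47 to myod1 at 0.57, a bound because the control signal was below the floor. The part of these values in the values of the myeloid genes was not tested.

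**Figure D4:**
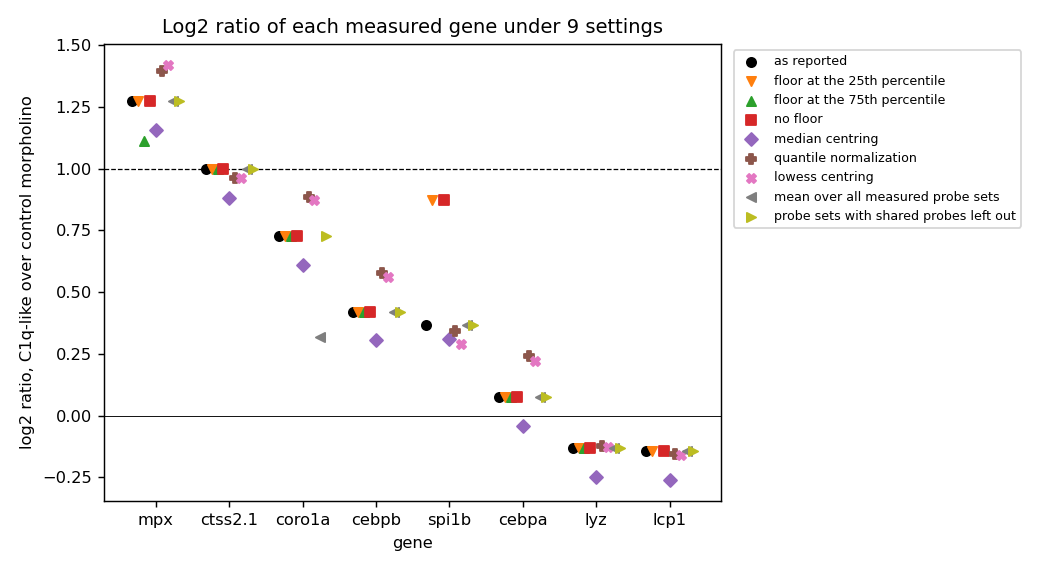
Log2 ratio of the C1q-like over the control morpholino array (vertical axis) for each of the 8 measured genes under the reported setting and 8 alternatives (symbols), with a dashed line at 2-fold. The gene mpx is above the line under each setting shown, ctss2.1 just below it, and lyz and lcp1 are below 0 where they were measured. The lower floor, no floor, averaging and leaving out probe sets could not move mpx, ctss2.1, lyz or lcp1. Each was read through a single measured probe set with both signals above the reported floor.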

How the data were processed

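Expression was measured on 2 Affymetrix zebrafish arrays, from 8 μg of total RNA each. The authors deposited 1 signal intensity per probe set and array on a linear scale, made with MAS5 per the submitters' processing notes; its version and scaling target are not stated in the labels or files. The C1q-like morpholino array had a median signal of 34.7, against 32 for the control array. Of 42 instrument settings, 2 differed, the days of hybridization and scanning, per the file headers.

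Signals were used as scaled by the authors. Symbols came from the platform annotation, updated through Entrez numbers with RefSeq (assembly GRCz12tu, no coordinates used). A single gene was named by 10795 of the 15502 probe sets, several by 135 and none by 4572. Each gene was represented by its brightest probe set (mean log2 signal over both arrays) and counted as measured if 1 or both signals reached the floor, the median of all signals. The members and lists were chosen with earlier results of these data known. Named genes were the members, the 2 highest and 2 lowest of each wider myeloid list, and the extremes of each other list. One gene that this rule takes is not reported here. Genes named beyond these (cebpd, cebp1, ctss2.2, ptprc, marco, ncf4, cyba, c1qc, runx1, runx3, tal1 and lmo2) were chosen after their values were seen. Genes of like pattern cannot be chosen from 2 arrays. Steps were tested on simulated data, with known changes placed only in bright probe sets and noise of an assumed size. That simulation does not cover changes at signals near the floor. Python 3.11.15 was used, with statsmodels 0.14.6, scipy 1.17.1, pandas 2.3.3 and numpy 2.4.6. The number of arrays, 1 per group, limits the precision.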

Additional observations from a re-analysis of the deposited data

How the results depend on the processing

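Other settings tried were a lower floor (25th percentile of signals), a higher floor (75th percentile), no floor, median centring, lowess centring with a span of 0.3, quantile normalization, averaging over a gene's measured probe sets, and leaving out probe sets ending in _x_at, _s_at or _a_at. The count of members at least 2-fold higher was 1 under each of these 8 alternatives. The share of all measured genes called higher was not constant, from 0.92% with the higher floor to 12.7% with no floor. With a call at 1.5-fold, chosen after seeing the data, the count of members was 3, where 10.2% of all measured genes were called. No member was lower by 2-fold under any of the 8 alternatives, where between 3.05% (higher floor) and 10.2% (no floor) of all measured genes were. None was lower by 1.5-fold with the reported floor, where 14.5% of all measured genes were. The median log2 ratio of the members ranged from 0.31 to 0.73, the highest with no floor, and was 0.57 with either the lower or the higher floor. These medians are not all over the same genes. With no floor all 9 members entered, the dim csf1ra included, and with the higher floor 6 did. The log2 ratio of mpx ranged from 1.11 to 1.42 and that of ctss2.1 from 0.88 to 0.9987. The lower floor, no floor, averaging and leaving out probe sets could not move either value. Both genes were read through a single measured probe set with both signals above the reported floor. The spi1b log2 ratio was 0.87 with the lower floor or none, and coro1a ranged from 0.32 to 0.88. Of the 47 other myeloid genes measured with the lower floor, 4 were at least 2-fold higher and 1 lower, where 6.95% and 5.73% of all genes were. With no floor, 6 and 5 of 56 were, against 12.7% and 10.2%. At 1.5-fold with the reported floor, 2 of 32 were higher and 0 lower, against 10.2% and 14.5%. The median of the other myeloid genes ranged from 0.02 to 0.19. Median centring moved the median of all genes by -0.11. Signal near background limits lcp1, spi1b and csf1ra, and the first 2 were not measured with the higher floor. The blood progenitor median, 0.11 as reported, was -0.66 with the higher floor, -0.32 with the lower one, -0.27 with none and -0.01 with median centring. The endothelial median, -0.07, was 0.22 with the higher floor. These list medians are likewise not all over the same genes. With the higher floor fewer genes of both lists were measured, and with the lower floor or none more blood progenitor genes entered. No paired analysis was possible because each group had 1 array.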
